A study of Mus musculus with 6 samples.

Results

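Kinesins are motor proteins that use ATP to move along microtubules or to take microtubule ends apart. One class, the mitotic kinesins, builds the spindle, moves chromosomes and completes cell division, and its genes are switched on late in the cell cycle. Many of the other kinesins carry vesicles, organelles and ciliary cargo in dividing and resting cells alike. Others take microtubules apart or lack motor activity, and some are used mainly by neurons or by ciliated cells. Of 14860 genes measured on the arrays, 29 were kinesin genes, chosen by symbol: the genes named Kif with a digit, plus Kifc1, Kifc2 and Kifc3, wherever a row of the array named that gene alone. Another 12 protein-coding kinesins of the 41 in the mouse gene table had no such row. The 29 measured kinesins comprised 9 mitotic kinesins (Kif2c, Kif4, Kif11, Kif15, Kif18a, Kif20a, Kif20b, Kif22 and Kif23) and 20 others. The remaining mitotic kinesins of the chosen set of 12, Kif14, Kif18b and Kifc1, had no row that named a single gene, and Kif14 and Kifc1 were not analysed here.

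RNA abundance was measured on 6 Affymetrix arrays of cultured cells, labelled as endothelial cells, from the aorta of mice of the C57/BL6 background (5 generations) aged 4 weeks. In the 3 cultures labelled ERK1/2 null, cells of genotype Erk1-/-; Erk2fl/fl had received a lentivirus with Cre recombinase, called egfp-Cre in the genotype label of replicate 1 and Cre in those of replicates 2 and 3. The 3 cultures labelled ERK1/2 wild type had the same Erk1-/-; Erk2fl/fl genotype and a lentivirus with GFP, so that by this label the Erk1 deletion was shared by both groups, while Cre and the recombination of Erk2 set them apart. All cells grew in medium with 20% serum, heparin and endothelial growth supplement. Values are log2 expression after RMA (robust multi-array average), and a difference of 1 on this scale is 2-fold. The threshold for a call was 0.05 for the p-value of a limma linear model after Benjamini-Hochberg adjustment over all 14860 genes. The targeted kinase genes were not analysed here, so their level did not check the labels.

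Most endothelial markers were dim in both groups. Of 17 such markers 13 lay in the dimmest 33% of genes, Pecam1 (the adhesion molecule CD31) at 3.97 ± 0.23 in ERK1/2 null and 3.77 ± 0.34 in wild type cultures (SD, n = 3 each), and Cdh5 (VE-cadherin) at 3.48 ± 0.14 in null and 3.89 ± 0.53 in wild type cultures. Eng was bright, at 9.73 ± 0.40 in null and 9.28 ± 0.36 in wild type cultures, and Erg, Egfl7 and Sox18 also lay above the dimmest 33%. None of the 17 was called without the replicate block (adjusted p of 0.14 or higher) and 1, Erg, was with it. Fibroblast markers had medians of 9.10 to 10.96 on the null arrays and 8.11 to 9.0 on the wild type arrays, and 3 of 11 rose (8 with the replicate block), against 5.35% of all genes (8.92% with the block). Of these 3, Col3a1 was kept in all 6 fits that left out an array, Mfap5 in 2 (adjusted p up to 0.15 without null replicate 2) and Col1a2 in 1 (up to 0.11 without null replicate 3). Col1a2 was also lost under quantile normalization (0.075) and with each array centred on its median (0.066). The sum of these 11 on the linear scale ran between 14111 and 32216 in null and between 8069 and 12075 in wild type cultures. Of 10 smooth muscle markers, Mylk rose (4 of 10 with the block), with a sum of 5648 to 10282 on null and 3104 to 5842 on wild type arrays. The call of Mylk was lost without null replicate 3 and without wild type replicate 3 (adjusted p = 0.060 in both). Of 8 macrophage markers none was called (lowest adjusted p 0.23, for Fcer1g; 1 called with the block), with a sum of 150 to 195 on null and 137 to 147 on wild type arrays. The part of differing cell types in the kinesin results was not tested.

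The mitotic kinesins fell without exception among the 9 measured. Their fall was between 3.85-fold and 6.05-fold, with a median log2 difference of −2.39 against 0.02 over all genes. Calls toward lower expression made up 6.12% of all genes (910 of 14860), those of at least 2-fold 2.81% and those of at least 4-fold 0.848%. The fall of all 9 kinesins was at least 2-fold and that of 8 was at least 4-fold. In bulk cultures, fewer dividing cells and less of these transcripts in each dividing cell cannot be told apart. In all 9 the 3 null arrays lay below the 3 wild type arrays, which held for 14.6% of all genes.

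The motors that shape the spindle showed the pattern array by array. Kif11 (Eg5) slides antiparallel microtubules to push the spindle poles apart. It had 6.48, 6.74 and 7.17 in ERK1/2 null replicates 1, 2 and 3, against 9.45, 9.19 and 9.15 in wild type replicates 1, 2 and 3 (log2 difference −2.47, SE 0.20, limma adjusted p = 0.0018). The highest null array thus stood almost 2 log2 units below the lowest wild type array. Kif15, which can stand in for Kif11 in keeping the poles apart, had 5.65, 5.88 and 6.32 in null cultures, against 8.34, 8.35 and 8.23 in wild type cultures, and fell by 2.36 (SE 0.19, limma adjusted p = 0.0018). Its wild type arrays were tightly grouped (SD 0.07), while the null arrays spread more (SD 0.34). Kif2c (MCAK), which dismantles microtubule ends at centromeres to correct faulty attachments, had 5.73, 6.91 and 7.0 in null cultures, against 8.69, 9.53 and 9.20 in wild type cultures. It had the largest mean fall of the 9 and also the widest spread in both groups (6.54 ± 0.71 against 9.14 ± 0.43, SD, n = 3 each; log2 difference −2.60, SE 0.39, limma adjusted p = 0.011). Kif18a, which damps chromosome movement so that chromosomes line up at the equator, had 5.60, 5.35 and 5.64 in null cultures, against 7.65, 7.48 and 7.29 in wild type cultures. Its fall by 1.94 was the smallest of the 9 (SE 0.15, limma adjusted p = 0.0016).

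The chromosome-bound motors also fell. Kif22 (Kid), which binds DNA and pushes chromosome arms outward, had 6.10, 6.33 and 6.59 in null cultures, against 8.33, 8.45 and 8.31 in wild type cultures (log2 difference −2.02, SE 0.15, limma adjusted p = 0.0016). Kif4, a chromokinesin that also works with Prc1 to set the length of the central spindle, had 5.64, 6.07 and 6.41 in null cultures, against 8.46, 8.58 and 8.50 in wild type cultures, and fell by 2.47 (SE 0.20, limma adjusted p = 0.0018). In neither gene did the groups come within 1 log2 unit of each other. The mouse gene table lists the pseudogenes Kif22-ps and Kif4-ps, and whether the probe sets separate them from the genes was not tested.

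The 3 measured motors of cytokinesis, all of the kinesin-6 family, had close differences. Kif23 (MKLP1), which pairs with Racgap1 to form centralspindlin at the midzone, had 6.72, 7.11 and 7.53 in null cultures, against 9.21, 9.56 and 9.76 in wild type cultures (log2 difference −2.39, SE 0.24, limma adjusted p = 0.0036). Kif20a (MKLP2), which brings the chromosomal passenger complex to the midzone, had 6.69, 7.61 and 7.60 in null cultures, against 9.35, 9.99 and 9.49 in wild type cultures. Kif20b, a motor of the midbody, had 5.64, 6.06 and 6.21 in null cultures, against 8.14, 8.58 and 8.35 in wild type cultures. Kif20a fell by 2.31 (SE 0.30, limma adjusted p = 0.0073), and Kif20b fell by 2.39 (SE 0.19, limma adjusted p = 0.0018). Kif18b, the partner of Kif2c in shortening astral microtubules, was named by a row that carries 2 gene identifiers of that symbol, and so was not counted. That row had 5.48, 6.0 and 5.95 in null cultures, against 8.15, 8.07 and 7.99 in wild type cultures, a log2 difference of −2.26 (limma adjusted p = 0.0016 when the row was tested with all genes). Kifc5b, whose symbol lies outside the chosen names, had 6.47, 6.43 and 6.14 in null cultures, against 8.25, 7.22 and 7.10 in wild type cultures. Its log2 difference of −1.18 was not called without the replicate block (limma adjusted p = 0.065) but was with it (0.025).

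**Figure D1:**
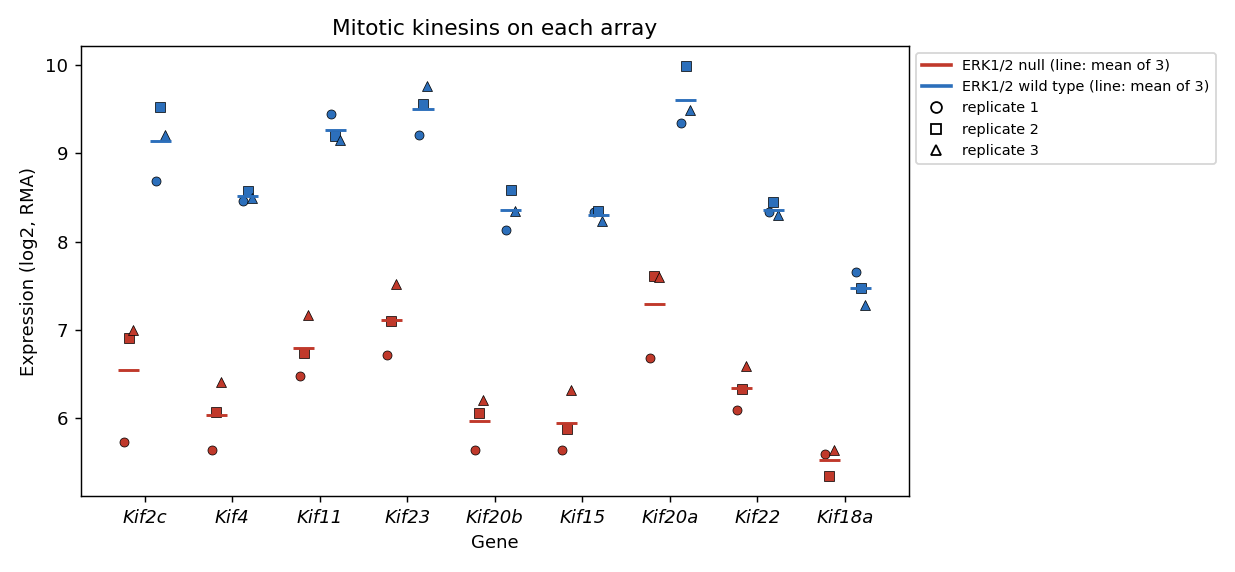
Log2 RMA expression of the 9 mitotic kinesins (y axis) on each array, with ERK1/2 null in red left of wild type in blue; symbols mark replicate numbers and lines the mean of 3 arrays. In all 9 genes the red points lie below the blue ones, and in 8 of 9 null replicate 1 is the lowest array.

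The 9 genes differed between null replicates in much the same way. Null replicate 1 was the lowest null array in 8 of 9, and null replicate 3 the highest in 8 of 9. Over all genes, null replicate 1 was the lowest of its group in 6768 of 14860 and null replicate 3 the highest in 5832. The order of the wild type arrays varied more between the 9 genes. Wild type replicate 1 was lowest in 5 and highest in 2, and wild type replicate 3 was lowest in 4 and highest in 1. Wild type replicate 2 was highest in 6 and lowest in 0 of the 9, against 5856 and 3607 of 14860 over all genes. Compared within replicate numbers, all 9 were lower in all 3 pairs (23.3% of all genes were), with medians of −2.66, −2.45 and −1.98 in pairs 1, 2 and 3. The difference of pair 3 was the smallest in size in 9 of 9, and in 4622 of 14860 over all genes. Each of the 9 passed the threshold in all 6 fits that left out an array, with adjusted p of 0.047 or lower, as did 2.78% of all genes. With the replicate number as a block, where 7.76% of all genes were called lower and 8.92% higher, the 9 calls stood too, with adjusted p of 0.0023 to 0.0032.

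**Figure D2:**
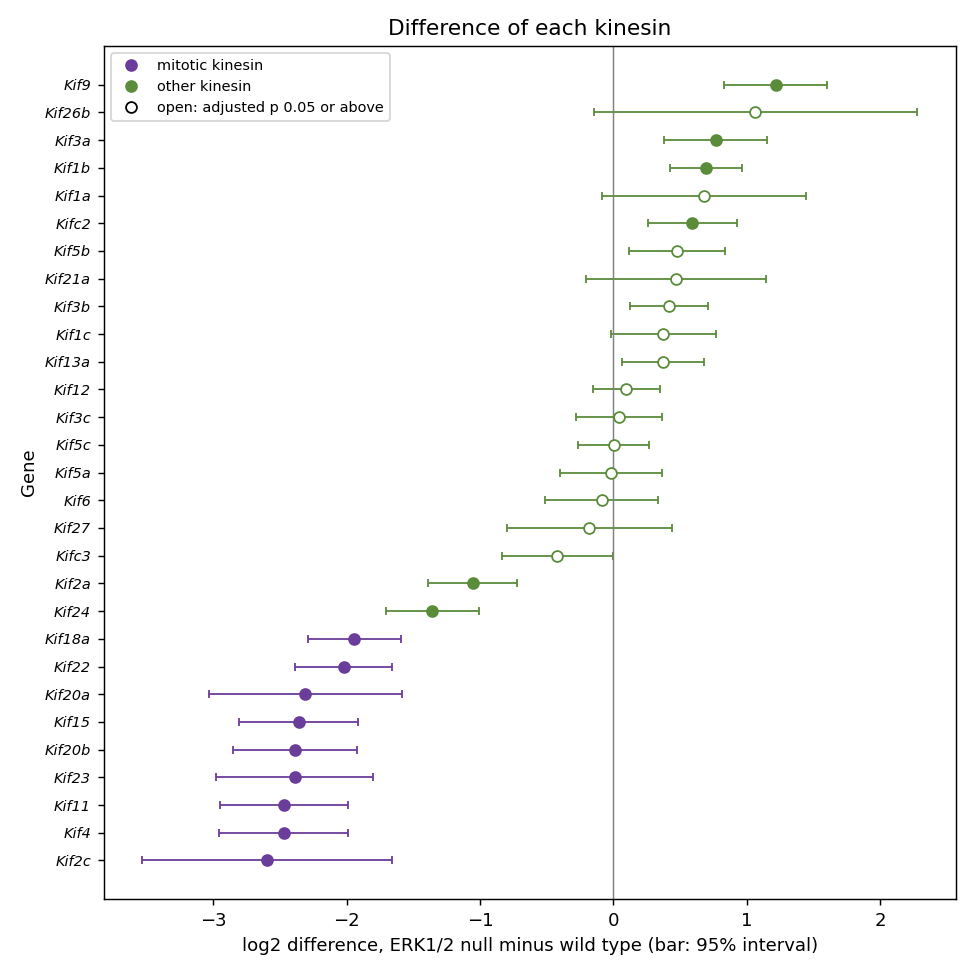
Log2 difference of each of the 29 kinesins (x axis, ERK1/2 null minus wild type) with its 95% interval from limma; filled points were called at an adjusted p under 0.05. The 9 mitotic kinesins lie between −2.60 and −1.94, and the 20 others between −1.36 and 1.22.

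Genes that are switched on for mitosis often carry a CHR element, with the letters TTTGAA or TTCGAA, near the transcription start. It is read by the MuvB complex through Lin54, which acts as a repressor with p130 or p107 in resting cells and as an activator with B-Myb in dividing cells. Many of these promoters also carry CCAAT, the box of the factor NF-Y. Both motifs were searched on both strands in RefSeq windows of 300 bases (250 before and 50 after each annotated start, GRCm38.p6), which were held for 8 of the 9 mitotic and 16 of the 20 other kinesins. A gene with several windows counted once, if any window held the motif. The motifs can share a base where they abut, and in the kinesin windows no matches of the 2 overlapped. A CHR match lay in the windows of 7 of 8 mitotic kinesins (87.5%), 4 of 16 other kinesins (25%) and 18.8% of 11869 tested genes with a window. A CCAAT match lay in 4 of 8 mitotic kinesins, 7 of 16 others and 42.4% of the 11869. Both motifs lay in 1 window in 4 of 8 mitotic kinesins, 3 of 16 others and 7.56% of the 11869. These matches describe letters in a window and are no evidence of binding.

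The 120 bases before the start are shown for 4 mitotic kinesins that fell and for Kif24, because the motifs lie close to the start in most of them, and for Kif1b, which rose, as a contrast. They run 5′ to 3′ in the direction of the gene, with CHR and CCAAT matches of either strand in capitals (TTCAAA and ATTGG are the opposite-strand forms). The first, Kif11, is at chr19:37376262-37376381 on the plus strand, with CCAAT at position -45 and CHR at -19 from the start.
Kif11: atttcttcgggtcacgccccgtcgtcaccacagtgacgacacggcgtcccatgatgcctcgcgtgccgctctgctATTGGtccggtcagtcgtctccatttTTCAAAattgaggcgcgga
Kif15 is at chr9:122950961-122951080, plus strand, with CHR again at -19.
Kif15: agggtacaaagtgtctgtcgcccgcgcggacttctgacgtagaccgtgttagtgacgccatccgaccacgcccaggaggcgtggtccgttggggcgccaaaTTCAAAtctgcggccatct
Kif22 is at chr7:127042421-127042540, minus strand, with CCAAT at -54 and CHR at -17.
Kif22: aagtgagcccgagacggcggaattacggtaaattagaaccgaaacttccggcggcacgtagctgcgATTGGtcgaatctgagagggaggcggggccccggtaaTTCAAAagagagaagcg
Kif2c is at chr4:117178773-117178892, minus strand, with CHR at -103.
Kif2c: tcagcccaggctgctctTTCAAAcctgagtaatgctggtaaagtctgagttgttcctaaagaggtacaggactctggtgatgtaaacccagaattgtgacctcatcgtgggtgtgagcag
Kif24 is at chr4:41464849-41464968, minus strand, with CCAAT at -116 and -74 and CHR at -26.
Kif24: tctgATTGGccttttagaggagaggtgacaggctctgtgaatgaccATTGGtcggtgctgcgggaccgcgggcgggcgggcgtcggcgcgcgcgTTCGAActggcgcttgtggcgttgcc
Kif1b is at chr4:149307734-149307853, minus strand, with CCAAT at -118 and -87 and no CHR match in the window.
Kif1b: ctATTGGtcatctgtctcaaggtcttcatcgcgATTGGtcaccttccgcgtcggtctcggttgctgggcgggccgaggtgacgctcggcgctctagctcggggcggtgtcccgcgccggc

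In Kif4, Kif20b and Kif23 the CHR matches lay just after the annotated start, at 20, at 8 and 14, and at 3. Kif18a, which fell, had no match of either motif in its window, and neither had Kif2a, a kinesin outside the mitotic set that fell. Kif26b, Kif27 and Kif1a had CHR matches and were not called.

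**Figure D3:**
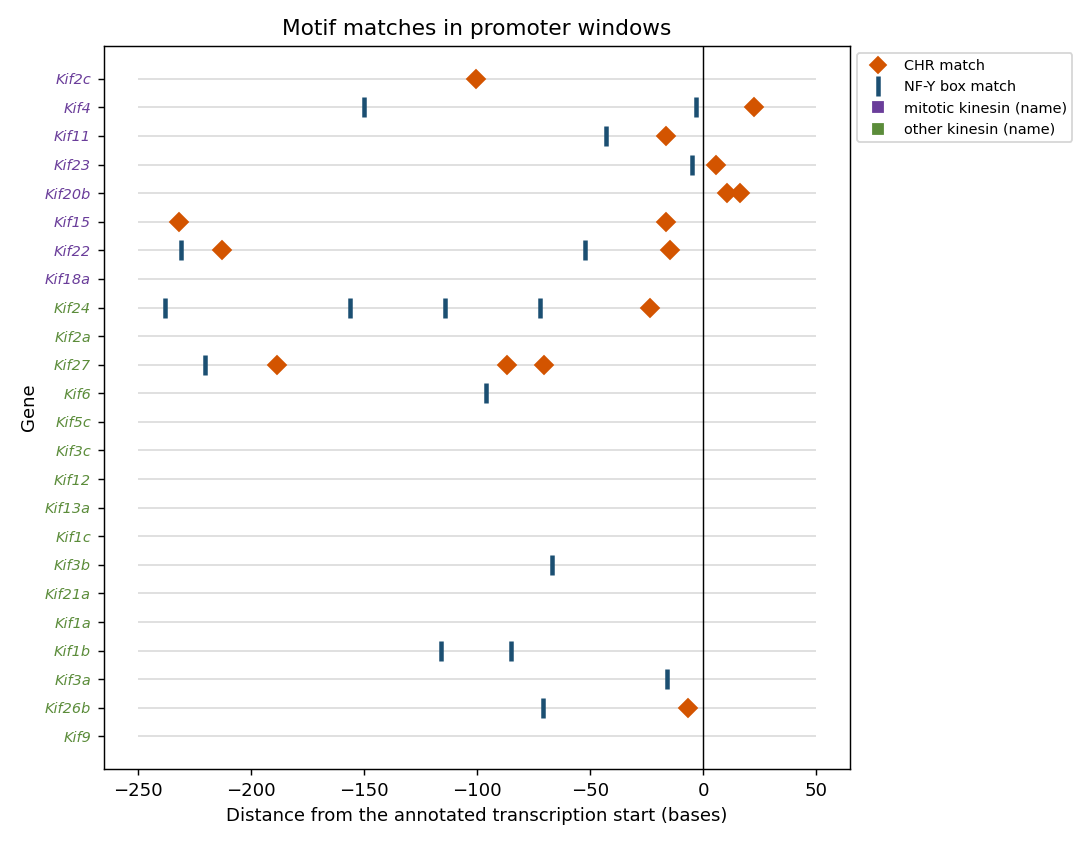
Positions of CHR matches (diamonds) and NF-Y box matches (bars, the CCAAT motif) in the window of 250 bases before to 50 after the first listed start of 8 mitotic and 16 other kinesins; the x axis is the distance from that start in bases. Mitotic kinesins (purple names) stand at the top, and 7 of the 8 shown have a CHR match.

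Of the other 20 kinesins, 2 fell (Kif24 and Kif2a), 4 rose (Kif9, Kif3a, Kif1b and Kifc2) and 14 were not called, with a median log2 difference of 0.37. Of all genes 6.12% were called lower and 5.35% higher (7.76% and 8.92% with the replicate block). The replicate block gave the same 2 and 4 calls.

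Both of the others that fell belong to the kinesin-13 family, which takes microtubules apart instead of walking along them, and with Kif2c all 3 measured members of that family fell. Kif2a, a depolymerase of spindle poles and of neurons, had 9.02, 9.06 and 9.19 in null cultures, against 9.96, 10.11 and 10.36 in wild type cultures (log2 difference −1.06, SE 0.14, limma adjusted p = 0.0073). Kif24, a centriole protein that restrains the outgrowth of cilia, had 4.78, 4.92 and 4.86 in null cultures, against 6.46, 6.02 and 6.14 in wild type cultures, and fell by 1.36 (SE 0.14, limma adjusted p = 0.0039). In both genes all null arrays lay below all wild type arrays (14.6% of all genes did), and both calls held in all 6 fits without an array. Their falls, 2.08-fold and 2.56-fold, were smaller than that of any of the 9 mitotic kinesins.

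Among the genes that rose, Kif9 had the largest difference. Kif9 is a motor of motile cilia and sperm tails, and had 5.27, 5.50 and 5.45 in null cultures, against 3.91, 4.23 and 4.42 in wild type cultures (log2 difference 1.22, SE 0.16, limma adjusted p = 0.0074). It was the only riser that passed in all 6 fits without an array. Its mean level lay at percentile 35.3 of all genes, just above the dimmest 33%, which limits what the size of its rise can show. Kif1b, a carrier of mitochondria and synaptic vesicle precursors, had 9.27, 9.34 and 9.23 in null cultures, against 8.47, 8.71 and 8.58 in wild type cultures (log2 difference 0.69, SE 0.11, limma adjusted p = 0.014); leaving out null replicate 2 raised this to 0.061. Kif3a, a heavy subunit of the kinesin-2 complex that drives transport into cilia, had 7.97, 8.17 and 8.13 in null cultures, against 7.02, 7.48 and 7.46 in wild type cultures (log2 difference 0.77, SE 0.16, limma adjusted p = 0.030). In each of these genes all null arrays lay above all wild type arrays, which held for 16.5% of all genes. The call of Kif3a was kept in 1 of the 6 fits without an array, and its adjusted p reached 0.11 without null replicate 2. Kifc2, a motor that walks toward the minus end and is best known from neurons, had 5.41, 5.39 and 5.29 in null cultures, against 4.92, 4.85 and 4.53 in wild type cultures (log2 difference 0.59, SE 0.14, limma adjusted p = 0.043). Its call was lost in all 6 such fits (adjusted p up to 0.13). It was lost as well under quantile normalization (0.12) and when each array was centred on its median (0.067).

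**Figure D4:**
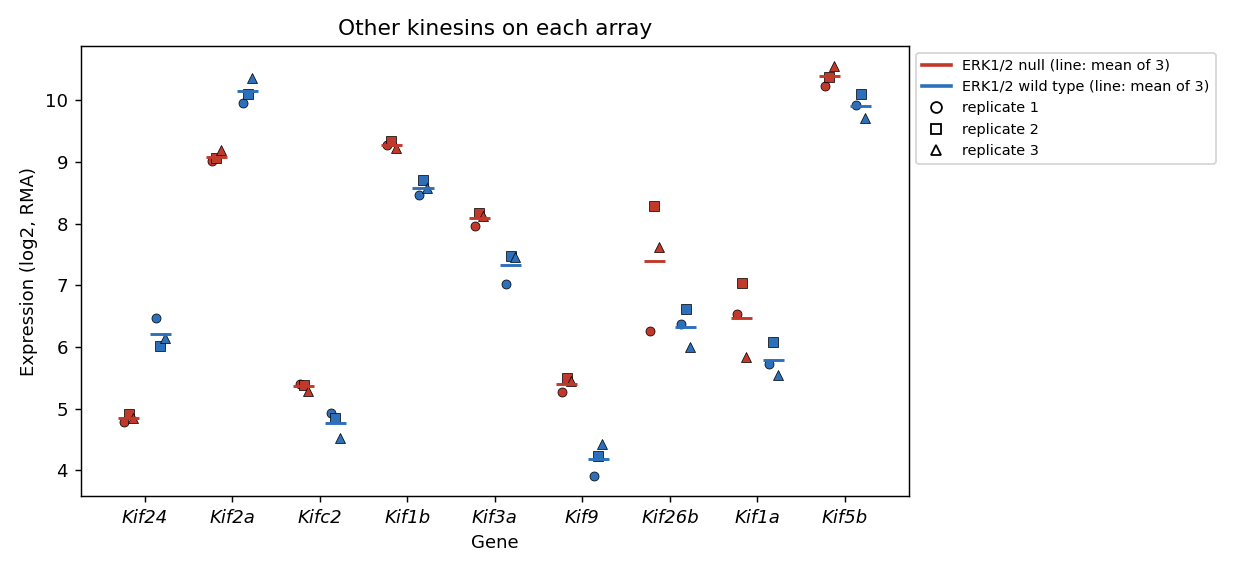
Log2 RMA expression on each array (y axis) of the 6 other kinesins that were called and of Kif26b, Kif1a and Kif5b, which were not, with ERK1/2 null in red left of wild type in blue; lines are means of 3 arrays. Null replicate 1 of Kif26b lies at 6.26, among the wild type points, while null replicates 2 and 3 lie above them.

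Kif3b and Kifap3, partners of Kif3a in the kinesin-2 complex, were also higher on all null than on all wild type arrays (16.5% of all genes were) but did not pass. Kif3b, the second heavy subunit, had 7.94, 8.13 and 8.12 in null cultures, against 7.52, 7.79 and 7.62 in wild type cultures (log2 difference 0.42, limma adjusted p = 0.083). Kifap3, the accessory subunit that links the complex to cargo, differed by 0.46 (limma adjusted p = 0.11). Kif3c, which can replace Kif3b and is known mainly from neurons, had overlapping groups and a difference of 0.04, with a 95% interval of −0.28 to 0.36.

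The conventional kinesin heavy chains gave no call. Kif5b, the form used by most tissues, had 10.23, 10.39 and 10.55 in null cultures, against 9.92, 10.10 and 9.71 in wild type cultures (log2 difference 0.48, limma adjusted p = 0.098). The neuronal forms Kif5a and Kif5c were dim on all arrays, with differences of −0.02 and 0.00. Together with Kif6, Kif12 and Kif27 they were the 5 kinesins in the dimmest 33% of genes.

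The largest uncalled difference was that of Kif26b, a kinesin without motor activity that acts in Wnt5a-Ror signalling, and it rested on part of the arrays. It had 6.26, 8.29 and 7.62 in null cultures, against 6.37, 6.62 and 6.0 in wild type cultures (log2 difference 1.06, SE 0.50, limma adjusted p = 0.25). Pair 1 differed by −0.11 and pairs 2 and 3 by 1.67 and 1.63. Without null replicate 1 the difference was 1.63, with an adjusted p of 0.028. Kif1a, a carrier of synaptic vesicle precursors, had 6.53, 7.04 and 5.84 in null cultures, against 5.73, 6.08 and 5.55 in wild type cultures, and the groups overlapped (log2 difference 0.68, limma adjusted p = 0.24). Within replicate numbers it was higher in all 3 pairs, and with the replicate block its adjusted p was 0.051. The cortical microtubule regulator Kif21a also overlapped between groups and was higher in all 3 pairs, by 0.41, 0.44 and 0.56 (adjusted p = 0.36, and 0.051 with the block).

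The remaining kinesins were Kif1c, a carrier of Golgi vesicles and RNA, Kif13a, which moves endosomes, and Kifc3, a minus-end motor at cell junctions. Kif1c had 2 rows, the brighter of which differed by 0.38 (limma adjusted p = 0.22) and the dimmer by 0.22. Kif13a differed by 0.37 (adjusted p = 0.13) and Kifc3 by −0.42 (adjusted p = 0.19). Of the 20 others 9 had all null arrays above all wild type arrays, against 16.5% of all genes. All of them lay below in 3 of the 20, close to the 14.6% of all genes. Within replicate numbers 11 of 20 were higher in all 3 pairs, against 28.3% of all genes.

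Other genes of the same machinery are read against the 6.12% of all genes called lower, the 5.35% called higher and the 11.5% called in either direction (7.76%, 8.92% and 16.7% with the replicate block). Of 19 measured partners of mitotic kinesins all 19 fell, between 3.7-fold and 6.27-fold (median −2.23). Cenpe, a kinetochore motor of the kinesin family that carries another name, fell by 2.65, to 5.95 ± 0.66 in null cultures, against 8.60 ± 0.41 in wild type cultures (SD, n = 3 each; limma adjusted p = 0.0088). Aurka, the Aurora kinase of spindle poles, and Spag5 (astrin), which steadies kinetochore fibres, each fell by 2.43. Prc1, the microtubule bundler that Kif4 binds, fell by 2.25. Racgap1, the partner of Kif23, fell by 2.18 and Tpx2, a spindle assembly factor, also fell by 2.18. Of 7 markers of cycling cells all 7 fell, and their sum on the linear scale was 1603 to 1809 on null and 7351 to 8758 on wild type arrays. The sum of the 9 mitotic kinesins was 617 to 1034 on null and 3834 to 4714 on wild type arrays. The proliferation marker Mki67 fell by 2.76, the topoisomerase gene Top2a fell by 2.30 and the cyclin gene Ccna2 fell by 2.26. How far the kinesins follow the share of cycling cells was not tested.

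Of 12 measured regulators of mitotic gene transcription, 5 fell and none rose, against 6.12% and 5.35% of all genes. Mybl2 (B-Myb), the activator that joins MuvB, had 5.68, 5.97 and 5.71 in null cultures, against 8.29, 7.21 and 7.74 in wild type cultures (log2 difference −1.96, SE 0.27, limma adjusted p = 0.0089). Lin9, a core subunit of MuvB, fell by 1.86 and Lin54, the subunit that reads the CHR, fell by 0.96. Rbl1 (p107) fell by 1.83 and the repressive E2F gene E2f4 fell by 0.57. The call of E2f4 was kept in 1 of the 6 fits without an array, with an adjusted p of up to 0.078 without null replicate 3. Rbl2 (p130), the pocket protein of resting cells, had all null arrays above wild type (16.5% of all genes did) and was not called (log2 difference 0.54, limma adjusted p = 0.055).

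On the transport side, none of 16 kinesin light chains and adaptors was called, against 11.5% of all genes. The lowest p was that of Mapk8ip1 (JIP1), which links kinesin-1 to cargo and to JNK kinases (log2 difference 0.85, SE 0.22, limma adjusted p = 0.057). With the replicate block 2 of the 16 rose, Mapk8ip1 (0.018) and the light chain Klc1 (0.037), and 1, the nuclear envelope linker Syne2, fell (0.025). Of 15 subunits and regulators of dynein, the motor that walks the opposite way, Dynlt3 rose by 0.71 (limma adjusted p = 0.049) and Nde1, a dynein regulator needed in dividing cells, fell by 0.77 (limma adjusted p = 0.017), so that 2 of 15 were called, near the share of all genes. The call of Dynlt3 was kept in 1 of the 6 fits without an array (up to 0.15 without null replicate 2) and that of Nde1 in 4 (up to 0.064 without null replicate 3). With the block 3 of the 15 rose. All null arrays lay above all wild type arrays in 9 of the 15 and below in 1, against 16.5% and 14.6% of all genes. Within replicate numbers 11 of the 15 were higher in all 3 pairs and 1 was lower, against 28.3% and 23.3% of all genes. Of the 16 light chains and adaptors, 7 lay above and 1 below, while 8 were higher in all 3 pairs and 3 lower. Of 17 tubulin genes listed 11 were measured, and Tuba1a, Tuba1b, Tuba1c, Tubb1, Tubb3 and Tubb4b were not. Of the 11, Tubb2b rose by 1.42, while Tube1 fell by 1.18, Tubb6 fell by 1.10 and the nucleating gamma-tubulin gene Tubg1 fell by 0.91. Tube1 and Tubb6 were each kept in 3 and Tubg1 in 4 of the 6 fits without an array, while Tubb2b passed in all 6. The adjusted p of Tube1 reached 0.078 and that of Tubb6 0.064 without null replicate 2, and that of Tubg1 0.059 without null replicate 3. With the block 3 tubulin genes rose in place of 1.

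**Figure D5:**
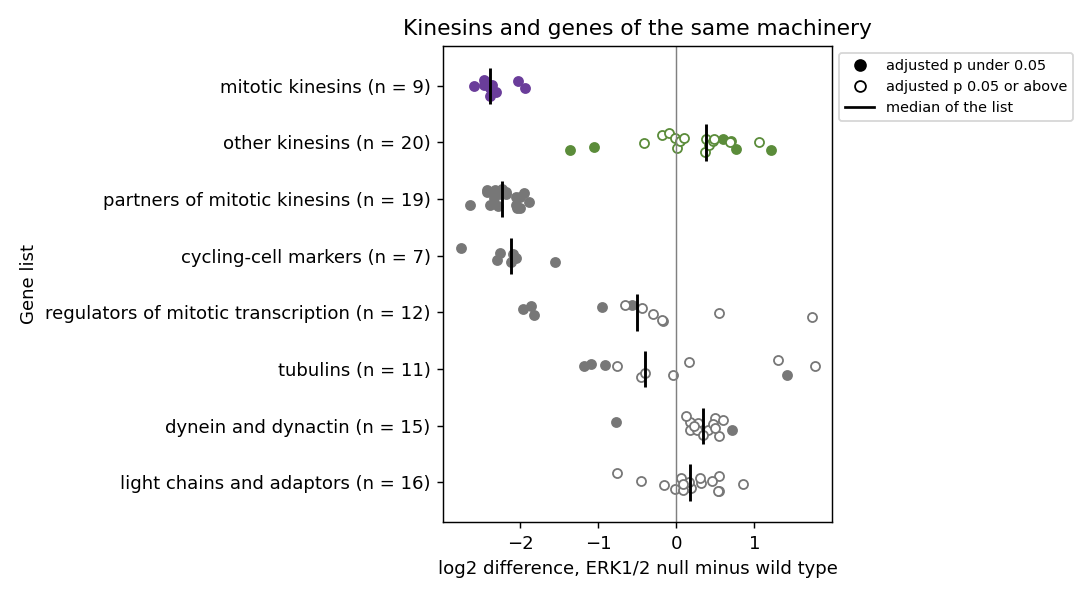
Log2 differences (x axis, ERK1/2 null minus wild type) of the mitotic kinesins, the other kinesins and 6 lists of genes of the same machinery; each point is a gene, filled when called at an adjusted p under 0.05, and black bars are list medians. The mitotic kinesins, their partners and cycling-cell markers have medians of −2.39, −2.23 and −2.12, and the other kinesins 0.37.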

How the data were processed

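The deposited table held 1 log2 value per probe set and array, which the authors made with RMA, per the submitters' processing notes without a version; values ran between 0.74 and 14.32, as log2 intensities do. Per the labels' protocols, biotinylated cRNA was made from 2 µg of Trizol-extracted RNA. Of 16775 rows, 14996 named 1 gene in the platform annotation, 1019 named several and 760 were not listed. Gene identifiers of 14941 rows matched the GRCm38.p6 gene table, used for names. The row with the highest mean stood for each of 135 genes with several rows, leaving 14860 genes, tested with limma 3.58.1 (lmFit, eBayes) in R 4.3.3, 2-sided, without a block. Python 3.11.15 with pandas 2.3.3 handled the tables. The procedure was tested on simulated data. The number of arrays, 3 per group, limited the precision.

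Titles give each group replicates 1 to 3; what equal numbers share is not stated. Deviations from group means correlated at 0.57, 0.35 and 0.45 across genes between arrays of equal number and at 0.04 or lower otherwise. Deviations cancel out within a group, so high values at equal numbers in part force low values at the others. Equal numbers may thus pair the arrays. The main fit left such a pairing out, and the fit with the replicate block took it in. In both fits p-values measure only the spread between these cultures.

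The kinesins and the 10 lists of other genes (126 of 150 measured) were chosen with earlier results of these data known, so their counts are set against the share called among all genes, with no list test. Named genes were the mitotic kinesins, all called others, the 3 largest uncalled differences, the 3 others with the highest level, and up to 3 called genes per list (the gene with the lowest p where none was called); others named in the text (such as Kif3b, Kif21a, Prc1, Lin54 and Klc1) were chosen as complex partners or after their values were seen. Alternatives were quantile normalization, array medians, a level filter, a trend with a robust prior, array weights, the mean of rows, the block, leaving out arrays and a threshold of 0.01; counting the Kif18b row was added after seeing the data.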

Additional observations from a re-analysis of the deposited data

How the results depend on the processing

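The count of 9 mitotic kinesins called lower was 9 under every alternative run for it but 2: it was 8 at a threshold of 0.01, which Kif2c missed, and 10 when the Kif18b row was counted. Their median difference was −2.55 to −2.19 in the fits without 1 array. The count of 2 other kinesins called lower was 2 in each alternative. The count of 4 other kinesins called higher was 3 under quantile normalization and 3 with array medians subtracted, with all arrays and the same threshold. It was 1 to 3 in the fits without 1 array (1 without null replicate 2, and 2 without null replicate 3, wild type replicate 2 or wild type replicate 3). It was 2 in a fit that dropped both arrays numbered 1, and 1 at a threshold of 0.01. With fewer arrays or a stricter threshold, fewer calls can be left. The 4 calls of other kinesins stood at 4 with the replicate block, which changed no call among the 29 kinesins. Over all genes, 910 were lower and 795 higher; without 1 array these were 459 to 727 and 271 to 651, without replicate 1 of both groups 556 were lower, at a threshold of 0.01 they were 363 and 182, and with the replicate block 1326 were higher (also with the Kif18b row). For the 40 named genes, 533 values under alternatives kept direction and side of the threshold, 60 lost the threshold and 6 gained it, and none changed sign. Scaling moved the median of all genes from 0.02 to −0.01 (quantile normalization) or −0.06 (array medians). Dim rows limit what differences of Kif5a, Kif5c, Kif6, Kif12 and Kif27 can show, and Kif9 lay just above their range.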
